A study of Mus musculus with 4 samples.

Results

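The extracellular matrix structural genes are the 42 genes listed for collagens, basement membrane proteins, proteoglycans, elastic fibre proteins, matrix glycoproteins and the enzymes that crosslink them. They were chosen by name, not by a measured value, out of 55450 genes of the mouse annotation used here. The choice was made with earlier results of these data known. Of these 42, 40 had an assembled transcript of at least 300 bases in whole tumor with Control SMO and 41 with LFPRLR SMO. *Fbln1* had none in either library. The libraries came from primary tumors of 4T1 cells, a carcinoma line of the mouse mammary gland that arose in the Balb/c strain, implanted in the mammary fat pad of young adult female Foxp3+EGFP Balb/c mice. In these mice the promoter of *Foxp3*, the transcription factor gene of regulatory T cells (Tregs), drives green fluorescent protein. The mice received a Control splice modulating oligomer (Control SMO) or one directed at the long form of the prolactin receptor (LFPRLR SMO) for 12 days. An SMO is an antisense oligomer that changes how a pre-mRNA is spliced. RNA of 6 mice was pooled for each library, and there was 1 library for whole tumor with Control SMO, 1 for whole tumor with LFPRLR SMO, and a transcript list for sorted tumor Tregs under each treatment label. The whole tumor comparison addresses which transcripts differ between treatments in the mixed cell population of the tumor. The 2 whole tumor libraries are called the Control library and the LFPRLR library below. There were no replicate libraries, so no p-value or SD is given anywhere, and every ratio describes those 2 libraries.

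The lists under the 2 tumor Treg labels held the same 4838 transcripts with the same values, so they are given once, as the tumor Treg values, and no treatment comparison was made from them. *Prlr*, the gene the LFPRLR SMO is directed at, had no listed transcript in any library, so its splicing could not be checked. In the whole tumor libraries 1 FPKM (fragments per kilobase of transcript, scaled to the size of the library) stood for a median read depth of 1.88 in the Control library and 1.75 in the LFPRLR library, and the lowest FPKM of a transcript of at least 300 bases was 0.211 and 0.247. The files hold no read counts, so no counting interval can be given, and a gene that has no listed transcript may still be expressed. In bulk tissue, fewer cells of a type and less RNA per cell cannot be told apart.

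The extracellular matrix is the protein scaffold between cells. Fibrillar collagens give it tensile strength, and fibronectin is laid down early and binds both collagen and integrins, the cell surface receptors for matrix. Basement membranes are thin sheets of type IV collagen, laminins, nidogens and perlecan that underlie epithelium and surround vessels. In tumors most fibrillar matrix is known to come from fibroblasts, while carcinoma cells, endothelial cells and macrophages add components of their own.

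The whole tumor transcripts are assembled pieces rather than annotated genes, so 3 kinds of value were used for each gene. The first was the FPKM summed over a gene's transcripts of at least 300 bases. A gene broken into adjacent pieces is counted once for each piece in this sum. The second was the exon-weighted value, which weights each transcript's FPKM by how many of its exon bases lie in exons of the gene, relative to the longest transcript annotated for that gene. The third was the mean FPKM over the exon bases that were covered in both whole tumor libraries, a measure chosen after the data were seen, which is called the mean over shared bases. Only the last sets the same bases of a gene side by side. Levels of different genes are compared by the exon-weighted value or the mean over shared bases, both of which are per length. For *Col6a2*, *Dcn*, *Bgn* and *Postn* the longest annotated transcript is a retained-intron form, so their exon-weighted values are relative to that form. All log2 ratios are LFPRLR over Control with 0.1 added to both values, and in paired values the Control library is given first.

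The sequences shown are the alternatively spliced exons by which fibronectin and periostin, which are among the most abundant members, differ between transcripts. They are given because the deposited files hold whole assembled transcripts, so these exons can be followed in each library. They were read from GENCODE M21 transcripts (GRCm38), 5′ to 3′ on the strand of the gene. *Fn1* lies on the minus strand of chromosome 1 (71585520 to 71653200). Its EDA exon and EDB exon each encode 1 fibronectin type III repeat that is known to be included mainly in fibronectin made by cells in tissue and left out of plasma fibronectin from liver. In the EDA exon (chr1:71603660-71603929, 270 bases) the capitals mark the 21 bases coding for a loop known to bind integrins. No part of the EDB exon (chr1:71613763-71614035, 273 bases) is marked. The variable region of *Fn1* has 360 bases (chr1:71597388-71597747) and is shortened by the choice of 3′ splice site. Its first segment (chr1:71597673-71597747, 75 bases) is shown, with capitals on the 9 bases coding for the leucine, aspartate and valine of an integrin binding site. The periostin exon (*Postn*, chr3:54385208-54385285, 78 bases, plus strand) lies in the part of the gene that encodes the variable carboxy-terminal end.
Fn1 EDA exon: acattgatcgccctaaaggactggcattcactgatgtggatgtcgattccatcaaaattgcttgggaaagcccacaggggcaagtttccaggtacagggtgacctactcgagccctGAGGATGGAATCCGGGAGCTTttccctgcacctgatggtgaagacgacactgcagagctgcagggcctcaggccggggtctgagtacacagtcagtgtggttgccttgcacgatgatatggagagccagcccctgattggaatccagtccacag
Fn1 EDB exon: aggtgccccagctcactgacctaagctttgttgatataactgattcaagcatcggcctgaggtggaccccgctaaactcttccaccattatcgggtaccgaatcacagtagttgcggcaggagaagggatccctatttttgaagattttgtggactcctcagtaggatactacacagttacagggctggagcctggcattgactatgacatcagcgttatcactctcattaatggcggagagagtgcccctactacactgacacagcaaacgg
Fn1 variable region, first segment: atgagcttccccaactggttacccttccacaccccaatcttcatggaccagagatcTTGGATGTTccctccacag
Postn alternative exon: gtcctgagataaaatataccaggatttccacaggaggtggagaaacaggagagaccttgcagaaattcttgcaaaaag

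By exon-weighted value, *Fn1* was the highest member in both whole tumor libraries, with 164.5 in the Control library and 178.5 in the LFPRLR library. It made up 20.7% and 20.8% of the exon-weighted sum over all members. *Sparc*, which encodes a secreted protein that binds collagen, followed at 101 and 95.9. The 3 main fibrillar collagen genes came next. *Col1a1* stood at 53.8 and 79.6, *Col1a2* at 53.6 and 46.6, and *Col3a1* at 49.0 and 60.3. *Fn1*, *Sparc* and these 3 collagen genes held 53.2% of the exon-weighted sum in the Control library and 53.8% in the LFPRLR library. The summed exon-weighted value over all members was 793 in the Control library and 857 in the LFPRLR library. These sums also depend on how much of each gene was covered, which differed between the libraries for *Col1a1*, as given below. At the low end, *Col11a1*, the gene of a minor fibrillar collagen chain, was at 0.445 and 0.415. The lowest member with a value was *Fmod* in the LFPRLR library, at 0.363.

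**Figure D1:**
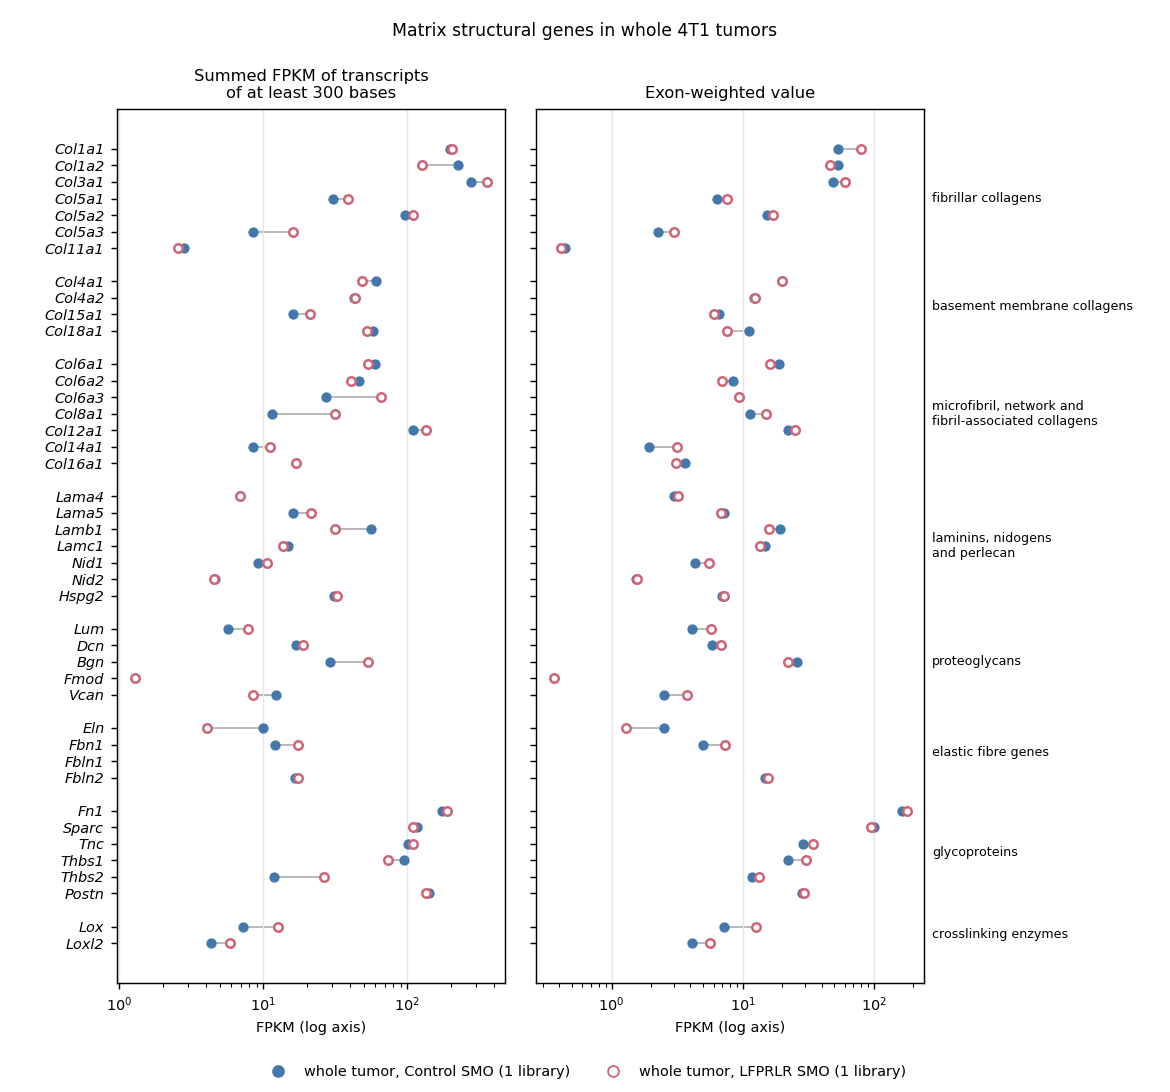
FPKM of the 42 members in whole tumor (log axis), by summed FPKM on the left and by exon-weighted value on the right, with 1 point per library. The gaps between points in *Col6a3*, *Col8a1*, *Bgn* and *Thbs2* are wide on the left and narrow on the right. *Fbln1* has no point, and *Fmod* has a point for LFPRLR SMO only.

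Among the 41 members with a summed FPKM of at least 1 in a library, 4 were at least 2-fold higher with LFPRLR SMO and 1 at least 2-fold lower. Among all 10410 genes past the same minimum, 18.3% were at least 2-fold higher and 16.5% at least 2-fold lower. The 4 were *Col6a3*, *Col8a1*, *Thbs2* and *Fmod*, and the 1 was *Eln*. By the exon-weighted value, where 5.74% of all genes were at least 2-fold higher and 8.53% lower, none of the 39 members with a value of at least 1 was past 2-fold in either direction. *Fmod* fell below that minimum and was not counted. By the mean over shared bases none of the 40 members with such a value was past 2-fold, beside 1.52% of all genes higher and 3.29% lower.

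Of the 4 higher calls by summed FPKM, *Thbs2*, *Col6a3* and *Col8a1* had more transcripts in the LFPRLR library than in the Control library. *Thbs2*, the gene of thrombospondin 2, a matrix glycoprotein that restrains vessel growth, had 1 transcript of 5856 bases in the Control library at 11.9 FPKM. In the LFPRLR library it had 2 pieces that lie side by side, of 3410 bases at 16.7 FPKM and of 2346 bases at 9.95 FPKM, which sum to 26.6. Over the 5702 exon bases covered in both libraries the mean was 11.9 and 13.9, a log2 ratio of 0.22 beside 1.15 by the sum. *Col6a3*, the gene of the longest type VI collagen chain, had 6 transcripts of up to 7645 bases in the Control library and 7 of up to 5192 bases in the LFPRLR library. Its summed FPKM was 27.2 and 65.4, while its exon-weighted value was 9.36 and 9.37. *Col8a1*, the gene of a network-forming collagen of vessel walls, had 1 transcript of 11.5 FPKM in the Control library. In the LFPRLR library it had a transcript of like length at 13.8 FPKM and a single-exon piece of 305 bases at 17.6 FPKM that was added to the sum. *Fmod*, the gene of fibromodulin, a small proteoglycan on collagen fibrils, was listed in the LFPRLR library as 1 single-exon transcript of 885 bases at 1.28 FPKM. It had no listed transcript in the Control library, and no fold is given.

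**Figure D2:**
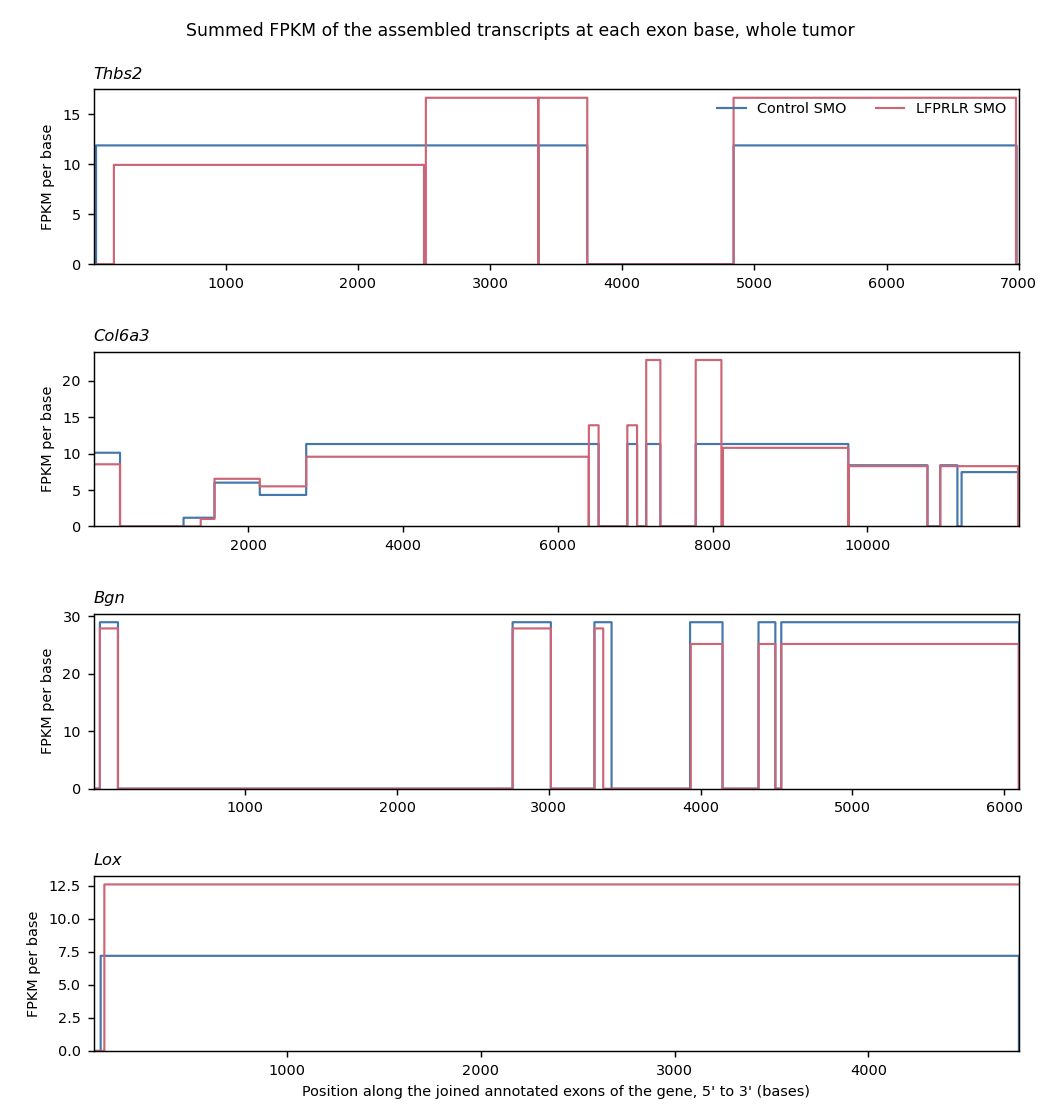
Summed FPKM of the assembled transcripts (vertical axis) at each base of the joined annotated exons of 4 genes (horizontal axis, 5′ to 3′), in the Control and LFPRLR libraries. For *Thbs2*, *Col6a3* and *Bgn* the 2 libraries run at like levels over most covered bases, broken at different points, while for *Lox* the LFPRLR SMO line lies above the Control SMO line along the whole gene. Stretches at 0 in both libraries are annotated exons with no assembled transcript, such as exons of retained-intron forms.

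Across the 40 members with a value in both libraries, the summed FPKM ratio and the ratio over shared bases were more than 0.5 apart on the log2 scale for 11 members. The exon-weighted and shared-base ratios were that far apart for 1 member, *Col11a1*, and their median distance was 0.022. The sign of the ratio was the same by all 3 measures in 31 members, of which 22 were higher and 9 lower with LFPRLR SMO. *Vcan*, *Thbs1*, *Bgn*, *Lama5* and *Col15a1* were among the 9 whose sign depended on the measure. Ratios over shared bases were mostly small. They lay within 0.5 of 0 on the log2 scale for 87.5% of the 40 members and for 75.6% of all genes.

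In the FPKM as deposited, most members were slightly higher with LFPRLR SMO, while most genes were slightly lower. After the libraries were scaled to the same sum, most genes were slightly higher by summed FPKM and over shared bases. Over shared bases, 26 of the 40 members were higher with LFPRLR SMO, and the median log2 ratio was 0.11. Over all 8747 genes with such a value, 37.2% were higher and the median was -0.12. By summed FPKM the median over the 40 members was 0.10, beside -0.09 over 8659 genes. By exon-weighted value the median over the 39 members past the minimum was 0.09, beside -0.16 over 8269 genes. When the 2 libraries were scaled to the same sum over transcripts of at least 300 bases, every log2 ratio rose by 0.15. Then 82.5% of the members (33 of 40) and 53.3% of all genes were higher over shared bases, with medians of 0.26 and 0.03. By the sum the shares were then 80.0% and 53.9%, and by exon-weighted value 79.5% and 48.6%. Over shared bases *Col4a1*, *Col15a1*, *Col16a1*, *Lama5*, *Lamc1*, *Sparc* and *Postn* changed from lower to higher with this scaling.

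**Figure D3:**
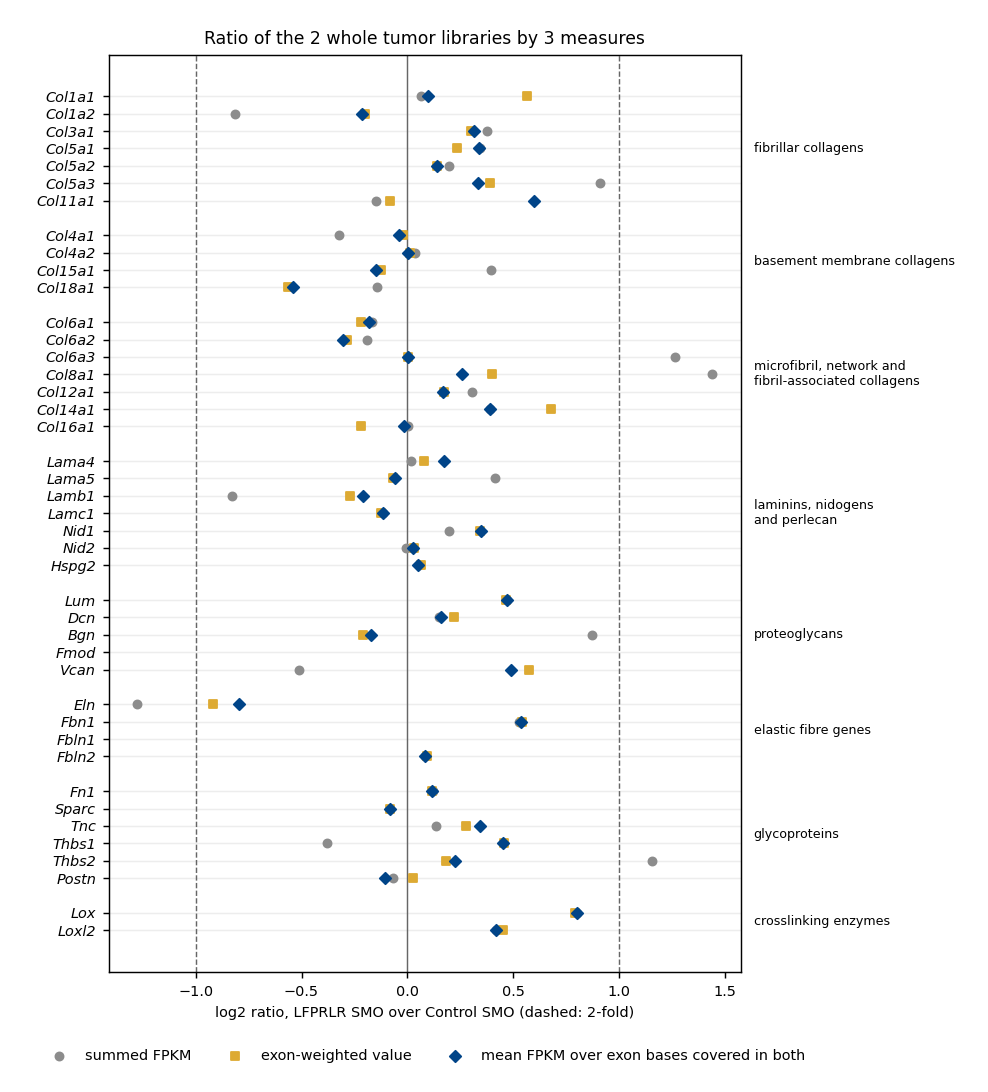
Log2 ratio of LFPRLR SMO over Control SMO in whole tumor for each member (horizontal axis, 0 marks equal levels, dashed lines mark 2-fold), by summed FPKM, exon-weighted value and mean FPKM over shared exon bases. The grey points past the dashed lines (*Col6a3*, *Col8a1*, *Thbs2* and *Eln*) are not followed there by the other points. *Fmod* and *Fbln1* have no ratio.

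The 7 fibrillar collagen genes were expressed in both libraries, with a median log2 ratio of 0.32 over shared bases and 6 of 7 higher with LFPRLR SMO. By the sum and by exon-weighted value 5 of 7 were higher, with medians of 0.19 and 0.23. The gene that differed was *Col11a1*, which had 1154 shared bases. Type I collagen, the main collagen of connective tissue, is built from chains encoded by *Col1a1* and *Col1a2*. *Col1a1* (chromosome 11, 94936224 to 94953042) had a summed FPKM of 197 in the Control library and 206 in the LFPRLR library. Its exon-weighted value was 53.8 and 79.6, but the Control transcripts covered 75.2% of the longest annotated transcript and those of the LFPRLR library 93.3%. Over the 4099 bases covered in both, the mean was 75.6 and 80.9, a log2 ratio of 0.10. *Col1a2* went the other way, at 56.6 and 48.7 over shared bases, a log2 ratio of -0.22. The ratio of *Col1a1* to *Col1a2* was therefore 1.34 in the Control library and 1.66 in the LFPRLR library over shared bases.

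*Col3a1*, the gene of type III collagen, which forms mixed fibrils with type I, was at 60.5 FPKM in the Control library and 75.3 in the LFPRLR library over shared bases. It was higher with LFPRLR SMO by all 3 measures, with log2 ratios between 0.30 and 0.37. Its FPKM was uneven along the gene. A piece of 3 exons stood at 132 and 198 FPKM. The longest piece of the Control library had 28 exons and stood at 41.5 FPKM. That of the LFPRLR library had 16 exons and stood at 18.9 FPKM, beside a separate piece of 18 exons at 106 FPKM. The longest pieces differ in extent, so their FPKM are not compared between libraries. The type V collagen chains regulate fibril width. *Col5a1* had 6.91 and 8.76 over shared bases, *Col5a2* 21.4 and 23.6, and *Col5a3* 2.80 and 3.55. All were higher with LFPRLR SMO by all 3 measures. *Col3a1* and *Col5a2* lie 24614 bases apart on chromosome 1 in opposite directions, and *Col3a1* was 2.82 times as high as its neighbour in the Control library and 3.19 times with LFPRLR SMO over shared bases. *Col11a1* was covered over only 31.3% and 16.3% of its longest transcript, so its ratio rests on a short part of the gene.

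The basement membrane collagens were nearly level between the libraries, apart from *Col18a1*. *Col4a1* and *Col4a2* encode the chains of the common type IV collagen network. They lie head to head on chromosome 8, overlapping by 22 bases at their starts. *Col4a1* was at 20.5 and 19.9 over shared bases, and *Col4a2* at 12.7 and 12.8, with log2 ratios of -0.04 and 0.01. *Col4a1* was 1.61 times as high as *Col4a2* in the Control library and 1.56 times with LFPRLR SMO. *Col15a1*, the gene of a collagen that links basement membranes to fibrils, had a log2 ratio of -0.15 over shared bases. *Col18a1*, whose protein releases the fragment endostatin, was at 13.04 and 8.95, a log2 ratio of -0.54. It was lower with LFPRLR SMO by all 3 measures. The median over these 4 genes was -0.09 over shared bases and 0.06 after scaling to the same sum, so its direction depends on the scaling.

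Among the collagens of microfibrils, networks and fibril surfaces, 4 of 7 were higher with LFPRLR SMO over shared bases (5 of 7 after scaling to the same sum), with a median of 0.00. Type VI collagen forms beaded microfibrils around cells. *Col6a1* was at 19.8 and 17.5 over shared bases and *Col6a2* at 10.9 and 8.81, and both were lower with LFPRLR SMO by all 3 measures. *Col6a3* was at 9.68 and 9.71. The ratio of *Col6a1* to *Col6a3* was 2.05 in the Control library and 1.80 in the LFPRLR library. *Col12a1*, the highest member of this group, encodes a collagen on fibril surfaces and stood at 21.8 and 24.5. *Col14a1*, which encodes a related collagen, had 2.60 and 3.44, a log2 ratio of 0.39. *Col8a1* had 11.5 and 13.8, and *Col16a1* 3.95 and 3.91.

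Of the laminin, nidogen and perlecan genes, 4 of 7 were higher with LFPRLR SMO over shared bases (6 of 7 after scaling to the same sum), and log2 ratios lay between -0.21 and 0.35. Laminins are trimers of 1 alpha, 1 beta and 1 gamma chain. The gamma chain gene *Lamc1* was assembled as 1 transcript of 28 exons in each library, at 14.8 and 13.7 FPKM. *Lamb1*, a beta chain gene, was at 19.6 and 16.9 over shared bases, a log2 ratio of -0.21. By summed FPKM *Lamb1* was at 56.2 and 31.7. Among its transcripts the Control library had 2 overlapping long forms and a separate piece of 769 bases at 39.1 FPKM. The alpha chain genes had lower levels than *Lamc1*, with *Lama5* at 7.16 and 6.86 and *Lama4* at 3.07 and 3.47. The ratio of *Lama4* to *Lamc1* was 0.207 and 0.254, and that of *Lama5* to *Lamc1* 0.483 and 0.501. *Nid1*, whose protein links laminin to type IV collagen, was at 4.54 and 5.80, and *Nid2* at 2.31 and 2.35. *Hspg2*, the gene of the heparan sulfate proteoglycan perlecan, was at 7.004 and 7.26 over 13984 shared bases.

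Among the small leucine-rich proteoglycans, which sit on collagen fibrils, *Lum* was higher with LFPRLR SMO by all 3 measures. It was assembled as 1 transcript of 3 exons in each library, at 5.67 and 7.89 FPKM, a log2 ratio of 0.47 over shared bases. *Dcn*, which lies 46984 bases from *Lum* on chromosome 10, was at 16.03 and 17.9. *Bgn*, on chromosome X, was 1 transcript of 8 exons at 29.0 FPKM in the Control library. In the LFPRLR library it was 2 pieces, of 27.9 and 25.2 FPKM, which sum to 53.1. Over the shared bases it was at 29.0 and 25.7, a log2 ratio of -0.17 beside 0.87 by the sum. *Vcan* encodes versican, a large proteoglycan of loose matrix. It was at 2.70 and 3.83 over 11460 shared bases, a log2 ratio of 0.49, while its log2 ratio by the sum was -0.51, with 6 pieces in the Control library and 3 in the LFPRLR library.

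*Eln* and *Fbn1* showed opposite differences. *Eln* encodes elastin, the rubber-like core of elastic fibres. In the Control library it had 3 transcripts, of 6.10, 2.84 and 1.05 FPKM, and in the LFPRLR library 1 transcript of 4.07 FPKM. Its log2 ratio was -1.28 by the sum, -0.92 by exon-weighted value and -0.79 over the 1004 bases covered in both libraries. *Eln* was the only member that was lower by more than 0.5 on the log2 scale by all 3 measures, beside 9.93% of the 8456 genes with a value by all 3. Its transcripts covered 46.8% of the longest annotated form in the Control library and 31.6% in the LFPRLR library. *Fbn1*, the gene of the microfibril protein fibrillin-1, was at 6.09 and 8.87 over 9868 shared bases. Its log2 ratio was 0.53 by the sum and 0.54 by both other measures. *Fbln2* encodes fibulin-2, which binds elastic fibres and basement membranes. It was assembled as 1 transcript in each library, at 16.5 and 17.5 FPKM. *Fbln1* had no transcript overlapping it, while transcripts within 20% of the length of its longest annotated form were listed down to 0.233 and 0.247 FPKM.

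The crosslinking enzyme genes *Lox* and *Loxl2* were higher with LFPRLR SMO. Both encode enzymes that oxidise lysines in collagen and elastin so that chains can be joined. *Lox* was assembled as 1 transcript of 7 exons in each library, which covered 99.96% and 99.6% of its longest annotated form. It stood at 7.21 FPKM in the Control library and 12.6 FPKM in the LFPRLR library. The fold was 1.75 by the sum and over shared bases and 1.74 by exon-weighted value, or log2 ratios of 0.80 and 0.79. In the FPKM as deposited, *Lox* and *Fbn1* were the 2 members higher by more than 0.5 on the log2 scale by all 3 measures. Among the 8456 genes the share was 2.85%. Scaling to the same sum also puts *Lum*, *Loxl2* and *Col14a1* past 0.5 by all 3, and the share of all genes was not counted there. *Loxl2* was at 4.35 and 5.85, a log2 ratio of 0.42 over shared bases. The spread between mice behind these ratios is unknown.

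Of the glycoprotein genes, *Fn1* and *Sparc* differed little between the whole tumor libraries, with log2 ratios of 0.12 and -0.08 by each measure. *Tnc* encodes tenascin-C, a glycoprotein of remodelling tissue. It was at 30.01 and 38.04 over shared bases, a log2 ratio of 0.34. *Thbs1*, the gene of thrombospondin 1, which activates latent TGF-beta, was at 22.5 and 30.8, a log2 ratio of 0.45. Its sum went the other way, at 95.4 and 73.3, with 5 pieces in the Control library and 3 in the LFPRLR library. *Postn* encodes periostin, a protein of fibrous matrix, and was at 51.5 and 47.9 over shared bases.

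The deposited transcripts show the form of fibronectin in each library. In whole tumor, *Fn1* had 1 transcript with the EDA exon and 1 without it in each library. The form with EDA had 42.4 FPKM and the form without it 132 FPKM in the Control library, so EDA was included in 24.3%. In the LFPRLR library the values were 38.8 and 151 FPKM, so EDA was included in 20.5%. The EDB exon was skipped in every *Fn1* transcript of both libraries, at a total of 174 and 189 FPKM. The form without EDA carried the long variable region and the form with EDA the middle one, which lacks the 75-base first segment and so the integrin site marked above. With 2 transcripts per library, the assembly cannot show whether EDA and the variable region are linked in single molecules. Both Control transcripts kept an intron of 2306 bases (chr1:71645703-71648008) that the LFPRLR transcripts did not, and had lengths of 10339 and 10534 bases against 8242 and 8437.

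**Figure D4:**
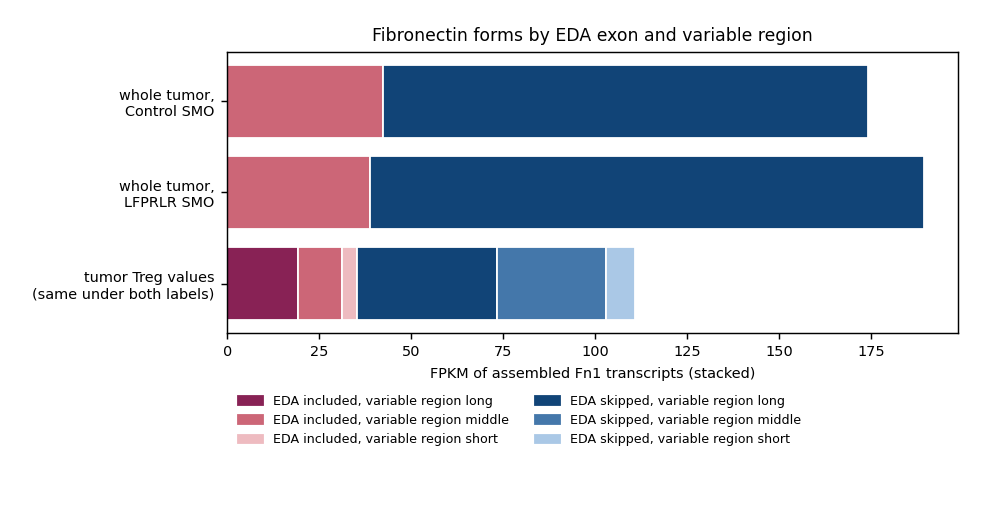
FPKM of assembled *Fn1* transcripts (horizontal axis, stacked) in the 2 whole tumor libraries and the tumor Treg values, split by whether the EDA exon is included and by the length of the variable region. The share with EDA is 24.3%, 20.5% and 31.7% from top to bottom, and the middle and short variable regions make up more of the tumor Treg bar. The tumor Treg transcripts were assembled by another program than those of whole tumor.

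*Postn* was also assembled in 2 forms at its 3′ end in each library. The 78-base exon was included at 66.8 FPKM and skipped at 17.2 FPKM in the Control library, which is 79.5% inclusion. In the LFPRLR library it was included at 54.3 FPKM and skipped at 16.2 FPKM, which is 77.0%. The alternative exons of 81 and 84 bases on either side of it were skipped in all these transcripts, at totals of 84.0 and 70.6 FPKM.

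*Tnc* differed between libraries in how its alternative repeats were joined. It has 6 annotated alternative exons of 273 bases, each encoding a fibronectin type III repeat. In the LFPRLR library a transcript of 19.1 FPKM skipped all 6 through an intron of 29677 bases (chr4:63976569-64006245) that is not in the annotation, and a second transcript of 24.3 FPKM included the first 2. In the Control library the gene was assembled in 3 pieces with a gap inside this stretch. Its pieces included 3 of the alternative exons, 1 at 30.8 FPKM and 2 at 19.9 FPKM, and skipped 1 at 19.9 FPKM, and no transcript joined the exons that flank the 6. With that gap, the 2 libraries cannot be compared for the form without the 6 exons.

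*Col6a3* has alternative exons of about equal size near its 5′ end, each encoding a von Willebrand factor A domain. The exons of 618 and 603 bases were skipped in all spanning transcripts of both libraries, at 10.1 and 8.54 FPKM. The 585-base exon was included in 53.1% in the Control library and 68.4% in the LFPRLR library, and the 600-base exon in 38.2% and 57.5%. These shares rest on transcripts of 1.04 to 5.51 FPKM. The 2880-base exon of *Vcan*, which encodes one of its glycosaminoglycan attachment regions, was skipped in the transcripts that span it, at 2.33 and 2.84 FPKM. Pieces that start or end inside an exon were counted as neither included nor skipped. The *Vcan* pieces together covered 92.7% and 98.8% of its longest annotated transcript. The share of *Vcan* RNA with this exon was therefore not determined, and the exon cannot be called absent.

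In the tumor Treg values 8 of the 40 members with a summed FPKM of 1 or more in the Control library had a listed transcript. Among all genes past that level, 30.9% had one. The 8 were *Fn1*, *Thbs1*, *Col1a1*, *Col3a1*, *Sparc*, *Col1a2*, *Col14a1* and *Tnc*. *Fn1* stood far above the others, at 111 FPKM by the sum and 104 by exon-weighted value, which is 63.4% of its whole tumor level in the Control library and 58.4% of that with LFPRLR SMO. *Thbs1* followed at an exon-weighted 4.75, or 21.3% and 15.5% of the whole tumor levels. *Col1a1* was at 4.36 and *Col3a1* at 1.74, which is 8.11% and 3.56% of their levels in the Control library. *Sparc*, the second highest member in whole tumor, was at 1.23, or 1.21% of that level. *Col1a2*, *Tnc* and *Col14a1* were at or below 0.345. The tumor Treg FPKM were made by another program and normalized separately, so these percentages are a description. FPKM of transcripts of at least 300 bases summed to 1096370 in the tumor Treg values. In the Control and LFPRLR libraries they summed to 544097 and 490665. On an equal sum the percentages would be lower.

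No transcript was listed in the tumor Treg values for any basement membrane collagen, laminin, nidogen, perlecan, proteoglycan, elastic fibre or crosslinking enzyme gene among the members. Transcripts without a gene symbol were listed there only from 2.64 FPKM upward, so genes at a lower level may be missing from the list. The markers of the labelled cell type were checked beside these values. None of the 12 T cell and Treg markers, *Foxp3* and *Cd4* among them, had a listed transcript, while all 12 macrophage markers did, led by *Apoe* at 231 FPKM and *Lyz2* at 67.1 FPKM. Among fibroblast markers, 2 of 10 had a listed transcript, *Pdpn* at 4.38 FPKM and *Pi16* at 3.69 FPKM, and *Pdgfra*, *Pdgfrb* and *Thy1* had none. The markers of contractile cells, pericytes and endothelium had none, and 6 of 11 epithelial markers had one. Which cells carried the *Fn1* and collagen transcripts was not tested.

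**Figure D5:**
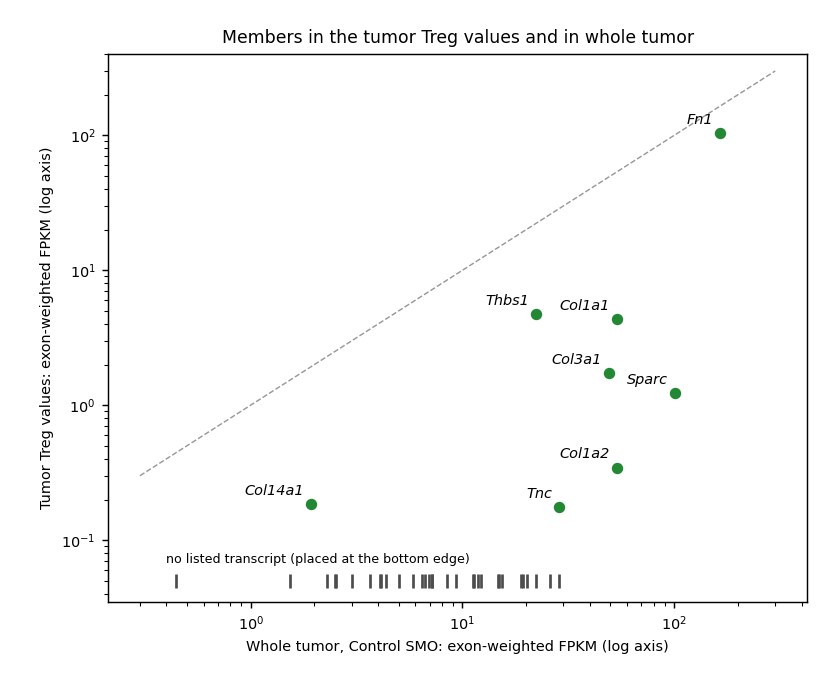
Exon-weighted FPKM of members in the tumor Treg values (vertical log axis) against the Control library (horizontal log axis), with equal levels on the dashed line. *Fn1* lies near the line, *Thbs1* and *Col1a1* well below it, and the members without a listed transcript are ticks at the bottom edge. The axes are not scaled to the same sum of FPKM, which is larger in the tumor Treg values.

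*Fn1* was assembled in the tumor Treg values as 6 transcripts, 1 for each combination of EDA with the long, middle and short variable region. The EDA exon was included in 31.7% of the *Fn1* FPKM, and the EDB exon in none of the 111 FPKM. The long variable region made up 51.8%, the middle one 37.4% and the short one, without any of the 360 bases, 10.8%. The short form was not assembled in whole tumor. The whole tumor and tumor Treg transcripts were assembled by different programs. Whether the number of forms and their shares differ between the cells was therefore not tested. *Col1a1* in the tumor Treg values was covered over 79.1% of its longest transcript by 2 transcripts at 5.63 and 5.26 FPKM, with mean depths of 5.33 and 4.99 reads. *Col1a2* was covered over 10.9%, *Tnc* over 5.46% and *Col14a1* over 6.37%.

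Other genes that make and receive the matrix were followed in whole tumor from lists that do not overlap the members. Of 17 genes for collagen folding and modification, 13 had a value in both libraries and 9 of these were lower with LFPRLR SMO by summed FPKM, with a median log2 ratio of -0.53. Over shared bases 8 of 13 were lower, with a median of -0.23. After scaling to the same sum 6 of 13 were higher over shared bases, with a median of -0.09. The highest 4 were *P4hb*, a subunit of prolyl hydroxylase, at 49.7 and 28.7 FPKM, *Ppib*, a prolyl isomerase, at 42.8 and 28.7, *Serpinh1*, a collagen chaperone, at 31.7 and 26.6, and *P4ha1*, a prolyl hydroxylase subunit, at 19.2 and 12.1, all by summed FPKM. Over shared bases the log2 ratios were -0.52, -0.58, -0.25 and 0.07, so that of *P4ha1* changed sign. By summed FPKM 3 of 16 past the minimum were at least 2-fold higher and 3 at least 2-fold lower, beside 18.3% and 16.5% of all genes. Of these 6 calls, 3 were of genes listed in 1 library only. Over shared bases none of the 13 with a value was past 2-fold, beside 1.52% and 3.29% of all genes. The 4 listed of 8 genes of procollagen processing were lower with LFPRLR SMO by the sum and over shared bases, though only 3 of them were after scaling to the same sum, and the highest was *Bmp1*, which cleaves procollagen ends, at 33.6 and 24.3 FPKM. The others, *Tll1*, *Tll2*, *Adamts3* and *Adamts14*, had no value by the sum. Of the 4 other crosslinking enzyme genes, 3 were higher with LFPRLR SMO by the sum and 2 over shared bases. Their median log2 ratio over shared bases was -0.06. *Loxl3* was at 12.9 and 22.9 FPKM by the sum, with a log2 ratio of 0.83. That ratio was 0.10 by exon-weighted value and 0.30 over shared bases. The log2 ratio of *Loxl4* was 1.16 by the sum, 0.17 by exon-weighted value and -0.41 over shared bases. *Tgm2*, a transglutaminase, was at 7.15 and 5.03, with a log2 ratio of -0.50 by all 3 measures, and *Tgm2* was also listed at 18.4 FPKM in the tumor Treg values.

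Of 42 other structural genes, 18 had a value in both whole tumor libraries, and 12 of these were higher with LFPRLR SMO by the sum. By summed FPKM 9 of the 22 past the minimum were at least 2-fold higher and 0 lower, beside 18.3% and 16.5% of all genes. Of these 9 genes, 4 were listed in the LFPRLR library only and 3 had a value over shared bases. None of the 16 with a shared-base value was past 2-fold there. The highest was *Spp1*, the gene of osteopontin, at 602 and 534 FPKM. The anchoring collagen gene *Col7a1* was at 18.0 and 29.5 FPKM, and the laminin gene *Lama3* at 17.4 and 27.5 FPKM, by the sum. Their log2 ratios of 0.70 and 0.66 were 0.13 and 0.42 over shared bases, and that of *Spp1* was -0.17 by both. Matrix receptor genes were nearly level over shared bases, where 10 of 16 were lower with a median of -0.14, but after scaling to the same sum 10 were higher with a median of 0.01. *Itgb1*, the integrin subunit shared by most collagen, laminin and fibronectin receptors, was at 140 and 77.1 FPKM by the sum but had a log2 ratio of 0.14 over shared bases.

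Cell type markers in whole tumor stood beside the members as follows, and their part in the members' ratios was not tested. Over shared bases, the log2 ratio of *Pdgfra* was 0.08, that of *Pdgfrb* 0.10 and that of *Thy1* -0.20. The other fibroblast markers with such a value were *Cd34* at 0.21, *Dpt* at 0.69 and *Pdpn* at -0.81. *Pi16* and *Twist2* were listed in the LFPRLR library only, and *Fap* and *Tcf21* had no listed transcript. Summed over the list, the exon-weighted value of fibroblast markers was 23.3 in the Control library and 22.6 in the LFPRLR library. It was 31.5 and 37.1 for contractile markers, 7.36 and 8.55 for pericyte markers, 28.3 and 24.9 for endothelial markers, and 267 and 238 for epithelial markers. Over shared bases 2 of 6 contractile markers with a value were higher with LFPRLR SMO, with a median log2 ratio of -0.17. For pericyte markers it was 3 of 3, with a median of 0.17, for endothelial markers 3 of 8, and for epithelial markers 3 of 10. Macrophage markers summed to 492 and 320, and 10 of 12 were lower with LFPRLR SMO over shared bases. After scaling to the same sum, 5 of 8 endothelial and 6 of 10 epithelial markers were higher over shared bases, with medians of 0.12 and 0.09. Of the contractile markers 3 of 6 were then higher, with a median of -0.02. Of the macrophage markers 3 of 12 were higher, with a median of -0.40. The direction for endothelial and epithelial markers thus depends on the scaling.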

How the data were processed

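Each whole tumor library was made from pooled RNA of 6 mice after depletion of ribosomal RNA. The submitters' processing notes name HISAT2 2.0.4 and mm10. The authors deposited assembled transcripts with FPKM and coverage (mean read depth), from Cufflinks (version not given in the sources used here) for whole tumor and StringTie 1.2.3 for tumor Tregs. The TPM values deposited for tumor Tregs were not used. Cuffdiff 2.0.2 is also named in the submitters' processing notes. Whether the libraries were stranded is not given in the sources used here.

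Transcripts were assigned to GENCODE M21 genes by symbol, by a shared annotated intron, or by at least 50% of their exon bases. The summed FPKM used transcripts of at least 300 bases. Genes needed a value of at least 1 in at least 1 library, the pseudocount was 0.1, and called meant past 2-fold. The mean over shared bases needed at least 300 such bases and was chosen after the data were seen. With 1 library per group no test was run.

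The members and lists were chosen with earlier results of these data known. All members are accounted for by role, and other lists name up to 4 genes, the highest by mean over the whole tumor libraries. One gene that this rule would name is not reported here. For markers and other crosslinking enzymes, the genes named were chosen after their values were seen. Sequences are of the GRCm38 reference strain, not of Balb/c. Alternatives covered the measure, pseudocount, scaling, filter and fold. Scripts ran in Python 3.11.15, with numpy 2.4.6 for calculation and matplotlib 3.10.9 for figures.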

Additional observations from a re-analysis of the deposited data

How the results depend on the processing

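No paired analysis was possible because there was 1 library per group and no test. The count of members at least 2-fold higher (4) and lower (1) by summed FPKM was 0 and 0 by exon-weighted value, where *Fmod* was below the minimum of 1, and over shared bases, where *Fmod* had no value. It was 2 higher and 1 lower with the most abundant transcript only, where the lower member was *Lamb1* and not *Eln*. The count was 2 lower (*Eln* and *Lamb1*) with transcripts of any length, and 1 higher (*Fmod*) and 0 lower at a fold of 3. Scaling to the same sum added *Bgn* and *Col5a3* and gave 6 higher, and centring on the median gene gave 5. The median log2 ratio over 41 members, *Fmod* included, was 0.12 and became 0.27 after scaling to the same sum. Among all genes, 1909 were higher and 1720 lower, against 511 and 759 by exon-weighted value, 133 and 288 over shared bases, 859 and 795 at a minimum of 5, and 1231 and 1064 at a fold of 3. The median share of a member's exon bases that was covered was 93.3% in the Control library and 92.0% in the LFPRLR library, or 72.5% and 77.1% of the union of annotated exons. Pseudocounts of 0.01 and 1 and no filter kept the counts at 4 and 1. The 8 members listed in the tumor Treg values were also 8 when any overlapping transcript was counted. Without read counts or replicate libraries, neither counting error nor the spread between mice can be given.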
